A study of Mus musculus with 21 samples.

Results

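The integrated stress response mRNAs Atf4, Atf5, Ddit3, Ppp1r15a, Ppp1r15b, Trib3 and Asns were followed from total RNA to ribosome-bound RNA in E14.5 mouse brain and kidney and in 3 cell populations. The 7 genes were chosen by symbol, no symbol was repeated, and each corresponded to 1 of the 23827 rows listed for every library. All 7 had reads in all 21 libraries, so no member was removed by the filter of at least 1 count. Translating ribosome affinity purification (TRAP) recovers the mRNA held by ribosomes that carry a tagged subunit, here mCherry fused to the ribosomal protein Rpl10a. The RNA recovered in this way is called the translatome, and the total RNA of the tissue the transcriptome.

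Every embryo carried the Gt(ROSA)26Sor-mCherry-Rpl10a+/- allele, which was founded from a single targeted ES cell clone and is driven by the CAGGS promoter once Cre has acted. In the Sox2Cre+/- embryos, where Cre acts in the cells of the embryo proper, brain transcriptome, brain translatome, kidney transcriptome and kidney translatome libraries were made. Endothelial cells of the brain and the kidney were tagged with Cdh5CreERT2+/- after tamoxifen, which the dam received by oral gavage, and the dorsal telencephalon with Emx1Cre+/-; from these only translatomes were made. All embryos were at E14.5, and each of the 7 groups held 3 libraries. A brain library pooled 2 organs, a kidney library of the Sox2Cre embryos 4, and a kidney endothelial library 6. The brain dissection held the forebrain and part of the diencephalon.

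When cells meet amino acid shortage, unfolded protein in the endoplasmic reticulum, haem shortage or viral RNA, a kinase phosphorylates the initiation factor eIF2, and most initiation slows. A small set of mRNAs with short open reading frames upstream of the main one is known to escape this block. On these mRNAs ribosomes then scan past an inhibitory upstream frame more often, though not past every upstream frame. Atf4 and Atf5 are mRNAs of this kind and encode transcription factors. Their targets include Ddit3 (the transcription factor CHOP), Trib3 (a pseudokinase that dampens ATF4) and Asns (asparagine synthetase), while Ppp1r15a (GADD34) and Ppp1r15b (CReP) direct phosphatase PP1 to eIF2 and reverse the signal. A TRAP library counts fragments over the whole mRNA, so a ribosome on an upstream frame cannot be told apart from a ribosome on the main frame.

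The presence of upstream frames was checked on GRCm38 transcripts of GENCODE vM21. For each gene a single transcript was used, the first that matched its RefSeq entries. Other transcripts of a gene were not scanned, so the counts and lengths hold for the transcript used. The leaders of 6 of the 7 mRNAs held at least 1 upstream ATG, whereas the Trib3 leader of 176 bases held 0. Trib3 is therefore a member of the pathway but not, in this transcript, an mRNA with an upstream frame that starts with ATG. Atf5 held 6 upstream ATGs in 293 bases, Atf4 3 in 594, Ppp1r15b 3 in 604, Ppp1r15a 3 in 283, Ddit3 2 in 186 and Asns 2 in 169. Over the 20201 mRNA symbols with a matched transcript, 47.0% held at least 1 upstream ATG, 16.7% at least 3 and 5.02% at least 6, and the median leader was 142 bases long. An upstream frame that runs past the main start occurred in 15.5% of all mRNAs, and among the members in Atf4 (1 frame) and Atf5 (2 frames).

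The start sites below are examples from the members with an upstream ATG, a feature that Trib3 lacks and 47.0% of all mRNAs hold. Each line gives 21 bases of the mRNA, written as DNA from 5′ to 3′, with the upstream ATG in capitals, and is followed by its place on GRCm38. The final Atf4 ATG opens a frame of 59 codons that overlaps the main start, and the ATG before it opens a frame of only 3 codons. The last Atf5 line and the last Atf4 line cross an exon junction, so their coordinates span an intron.
Atf4, ATG 2 of 3 (chr15:80255573-80255593, plus strand): gcggccaccATGgcgtattag
Atf4, ATG 3 of 3 (chr15:80255672-80256213, plus strand): gcctaagccATGgcgctcttc
Atf5, ATG 5 of 6 (chr7:44815490-44815510, minus strand): gaaatttttATGaagaggaat
Atf5, ATG 6 of 6 (chr7:44815276-44815495, minus strand): aggaataagATGaggtcctcc
Ddit3, ATG 1 of 2 (chr10:127290820-127290840, plus strand): gattatatcATGttgaagatg
Ppp1r15a, ATG 3 of 3 (chr7:45526078-45526098, minus strand): gagggcgacATGaacccgctg
Ppp1r15b, ATG 1 of 3 (chr1:133131236-133131256, plus strand): gttcggcgaATGacgtgaggc
Asns, ATG 1 of 2 (chr6:7693222-7693242, minus strand): cccagccacATGatgaaactt

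The shortest upstream frames of the group can be read whole, with the start and the stop codon in capitals. Ppp1r15b holds a frame of 2 codons and Atf4 a frame of 3 codons, and the shorter of the nested Atf5 frames has 6 codons.
Ppp1r15b, 2 codons: ATGacgTGA
Atf4, 3 codons: ATGgcgtatTAG
Atf5, 6 codons: ATGcggaaggggcacggcTAG

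The levels of the members, in RPKM (reads scaled by transcript length and library size, so that genes can be compared), differed widely. Atf4 was the most abundant member in every group, with group means between 81.6 RPKM in the brain transcriptome and 144 RPKM in the kidney translatome. Trib3 was the least abundant, with means between 0.122 RPKM in the Emx1-lineage and 0.953 RPKM in kidney endothelial cells, from 7 to 124 reads a library. Each other member had at least 147 reads in every library. The order of the groups differed between members. The kidney translatome led for Atf4, followed without overlap by the Emx1-lineage (134 ± 3.26 RPKM, SD, n = 3) and then by the brain translatome (123 ± 4.33) and kidney endothelial cells (120.0 ± 6.18), which overlapped, as did the kidney transcriptome (102 ± 3.84) and brain endothelial cells (94.5 ± 4.55). For Atf5 the kidney translatome (47.1 ± 1.49 RPKM), the brain translatome (38.3 ± 0.884) and the Emx1-lineage (35.1 ± 0.519) stood apart from each other and from the rest, while the transcriptomes and the endothelial groups overlapped as neighbours between 26.5 and 19.3 RPKM. Ppp1r15b showed another order, with kidney endothelial cells (46.6 ± 0.966 RPKM), kidney translatome (40.6 ± 2.68), kidney transcriptome (32.8 ± 0.316) and brain endothelial cells (29.2 ± 0.887) all apart, and the other brain groups overlapping between 20.5 and 19.1 RPKM. Ddit3 was highest in the brain translatome (17.3 ± 1.52 RPKM), which overlapped with the Emx1-lineage, and lowest in kidney endothelial cells (5.28 ± 0.553), which stood apart. The Ppp1r15a order began with the kidney translatome (11.4 ± 0.466 RPKM) and the Emx1-lineage (10.1 ± 0.477), each apart, and ended with the brain transcriptome (6.26 ± 0.767). In the Trib3 order the 2 endothelial and 2 kidney groups overlapped as neighbours and lay above the other brain groups. For Asns the ranges of every pair of neighbours in the order, from kidney endothelial cells (18.1 ± 2.89 RPKM) to the kidney translatome (11.1 ± 1.21), overlapped, while the ends of the order did not.

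**Figure D1:**
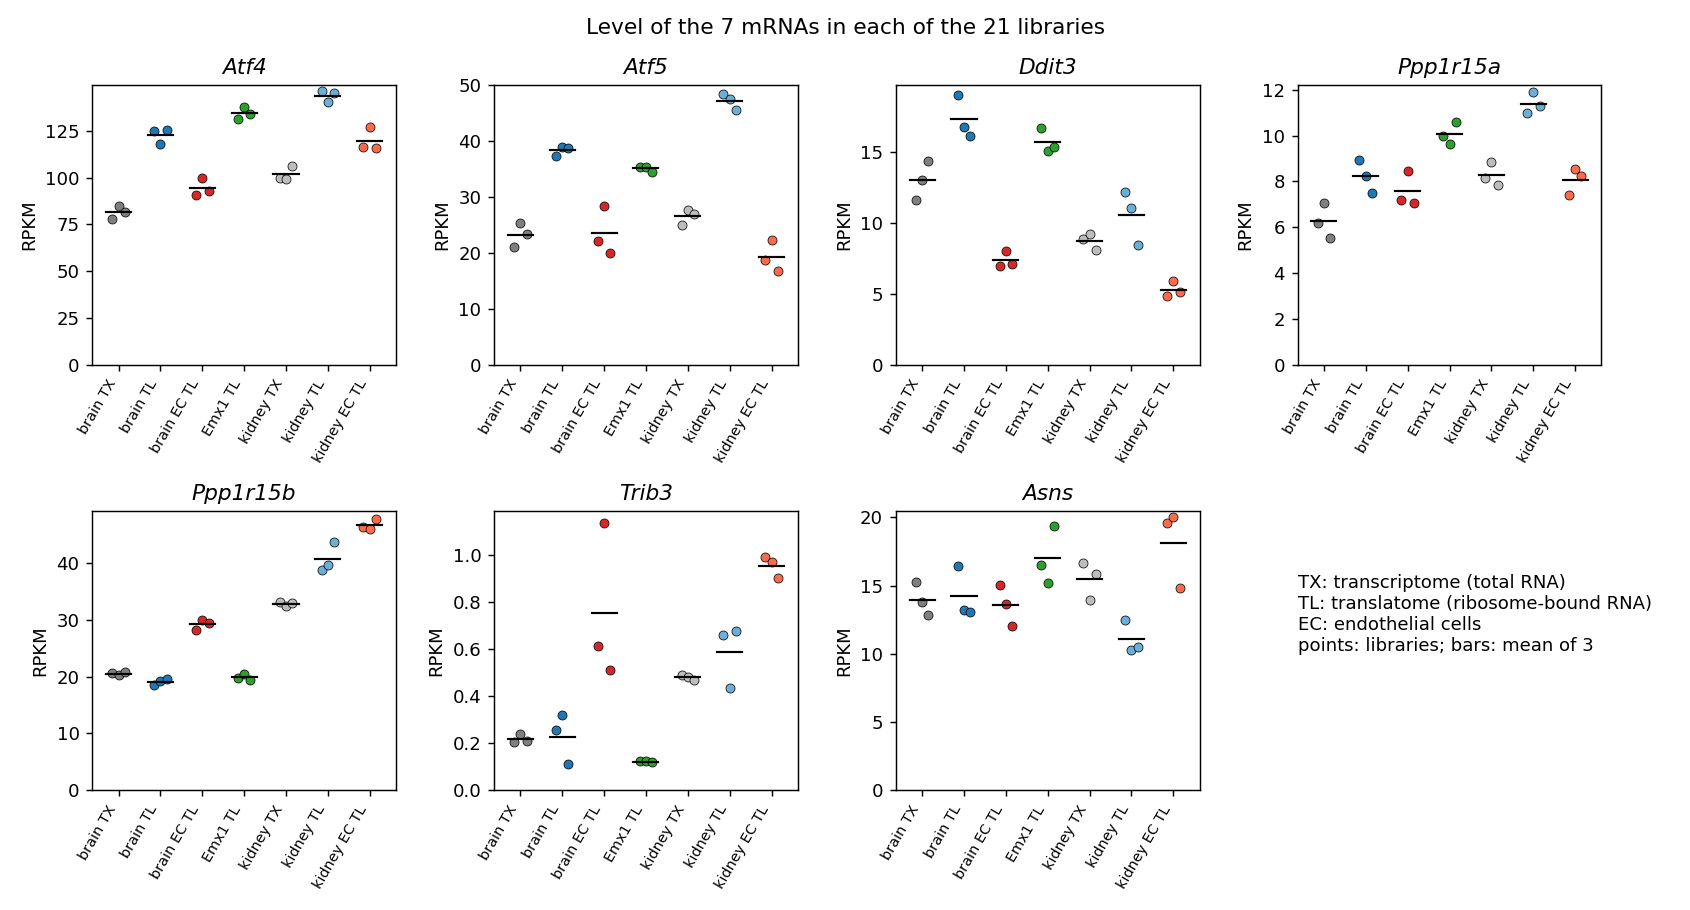
RPKM (vertical axes, from 0) of each mRNA in the 21 libraries; points are libraries, bars are means of 3 libraries, TX is the transcriptome, TL the translatome and EC endothelial cells. Atf4 and Atf5 stand higher in the translatome than in the transcriptome of both organs, whereas Ppp1r15b and Trib3 are highest in kidney endothelial cells.

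Library depth ranged from 21760652 reads on genes in a kidney translatome to 79231692 in an Emx1-lineage library. The labelled cell types were enriched for their own markers. The summed RPKM of 10 endothelial genes was 3950 to 4120 in brain endothelial libraries against 212 to 238 in the brain translatome. In the kidney it was 2600 to 3090 against 484 to 521. The summed RPKM of 8 dorsal telencephalic genes was 1310 to 1370 in the Emx1-lineage against 665 to 674 in the brain translatome, with ventral genes at 58.4 to 62.4 against 245 to 267. Nephron and ureteric bud genes kept 72.4 to 95.3 RPKM in kidney endothelial libraries against 452 to 484 in the kidney translatome. Depletion was weaker there for kidney stroma genes (282 to 413 against 464 to 589) and mural genes (84.8 to 97.2 against 95.2 to 110). Brain endothelial libraries kept 110 to 142 RPKM of the dorsal and 56.3 to 58.7 of the ventral genes. The stroma genes were higher in them (80.5 to 143 against 58.9 to 69.7) and mural genes lower (19.4 to 23.6 against 35.8 to 47.9). The summed RPKM of 6 erythroid genes was 352 to 665 in the kidney transcriptome against 92.0 to 174 in its translatome. In the brain it was 186 to 429 against 98.5 to 192. The row of the adult globin gene Hba-a1 was under 0.1 RPKM in every group. Whether that row missed reads assigned to other globin genes was not examined. The part of blood cells in the differences between translatome and transcriptome was not tested. In such bulk samples, fewer cells of a type and less RNA per cell cannot be told apart.

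The first question was whether ribosome-bound RNA held more or less of each mRNA than total RNA of the same organ. A difference was called at an adjusted p under 0.001 in edgeR's quasi-likelihood test. In the brain 2 of the 7 mRNAs were called higher in the translatome, where 18.6% of all 19446 tested rows were, and 0 lower, where 18.5% of rows were. At an unadjusted p under 0.05 the counts were 4 higher and 0 lower, which are also the counts of DESeq2. In the kidney 4 of the 7 were called higher, against 14.9% of 19336 rows, and 0 lower, against 15.8% of rows; DESeq2 called 4 higher and 1 lower, as did an unadjusted p under 0.05. The libraries were paired by tissue sample, which the main test does not use. With that sample as a block, 4 members were called higher in the brain and 1 lower in the kidney. The median log2 fold change of the 7 in the main test was 0.43 in the brain and 0.31 in the kidney, beside 0.0048 and -0.014 for all mRNA rows.

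Atf4 was enriched in the translatome of both organs. Its levels in the 3 brain samples were 78.0, 85.1 and 81.8 RPKM in the transcriptome and 125, 118 and 125 RPKM in the translatome. In the kidney they were 99.98, 99.4 and 106.3 RPKM in the transcriptome and 146.2, 140.3 and 145.1 RPKM in the translatome. The ranges did not overlap in either organ, and the level rose in all 6 tissue samples, by ratios of 1.60, 1.38 and 1.53 in the brain and 1.46, 1.41 and 1.37 in the kidney. The log2 fold change was 0.62 ± 0.052 (SE; edgeR adjusted p = 1.6e-07) in the brain and 0.50 ± 0.042 (edgeR adjusted p = 3.4e-06) in the kidney. The difference between the organs was not called (log2 difference kidney minus brain -0.10 ± 0.066, edgeR adjusted p = 0.33).

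Atf5 showed the largest fold change of the 7 in both organs. In the brain it stood at 21.1, 25.3 and 23.3 RPKM in the transcriptome and 37.3, 38.9 and 38.8 RPKM in the translatome. In the kidney the transcriptome gave 25.0, 27.7 and 26.9 RPKM and the translatome 48.4, 47.5 and 45.5 RPKM. All 6 translatome libraries thus lay above all 6 transcriptome libraries. The log2 fold change was 0.75 ± 0.072 (edgeR adjusted p = 6.5e-07) in the brain and 0.83 ± 0.051 (edgeR adjusted p = 4.5e-07) in the kidney. Of the mRNAs over 5 RPKM, 13.3% had a larger log2 fold change than Atf5 in the brain and 7.32% in the kidney. Both transcription factors kept their calls with the libraries of 1 sequencing lane, 3 translatome and 1 transcriptome libraries in the brain and 3 transcriptome and 1 translatome libraries in the kidney, where the lone library is assumed to vary like the others: the log2 fold changes of Atf4 were 0.67 and 0.52 and those of Atf5 0.88 and 0.79 in brain and kidney.

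Both phosphatase subunits were called higher in the kidney translatome than in total RNA and neither in the brain. For Ppp1r15a the difference between the organs was not called (log2 difference kidney minus brain 0.052 ± 0.14, edgeR adjusted p = 0.90). Ppp1r15a, the stress-inducible subunit, was at 6.20, 7.05 and 5.52 RPKM in the brain transcriptome and 8.95, 8.25 and 7.50 RPKM in its translatome. In the kidney it was at 8.14, 8.84 and 7.85 RPKM and at 11.0, 11.9 and 11.3 RPKM. The groups did not overlap in either organ. On the log2 scale the difference was 0.43 ± 0.097 in the brain, which missed the threshold (edgeR adjusted p = 0.0016), and 0.46 ± 0.075 in the kidney, which passed it (edgeR adjusted p = 4.1e-04). With the tissue sample as a block the brain difference was called as well (adjusted p = 1.4e-05). The kidney call was lost without transcriptome replicate 1 or 3 (adjusted p = 0.0025 and 0.0013), without translatome replicate 2 or 3 (0.0026 and 0.0014), and within 1 lane (0.0092), whereas the brain difference was called without transcriptome replicate 2 (6.1e-04).

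Ppp1r15b, the constitutive subunit, was called higher in the kidney translatome and was not called in the brain. The kidney transcriptome gave 33.1, 32.5 and 32.9 RPKM and the translatome 38.6, 39.5 and 43.7 RPKM, without overlap. The brain libraries lay close together, at 20.6, 20.2 and 20.8 RPKM in the transcriptome and 18.5, 19.2 and 19.6 RPKM in the translatome, where all translatome values were the lower ones. In log2 units the difference was 0.31 ± 0.050 (edgeR adjusted p = 3.8e-04) in the kidney and -0.076 ± 0.047 (edgeR adjusted p = 0.20) in the brain. The transcript shares 640 exonic bases, 11.4% of its length, with Gm26616 on the other strand, which reads of this kit cannot separate. The kidney call was lost without transcriptome replicate 1, 2 or 3 (adjusted p = 0.0013, 0.0017 and 0.0017) and with limma on log2(RPKM + 1) (0.0025). Of the 7 members it was the only one called in the test of the organ difference, at 0.40 ± 0.067 on the log2 scale (kidney minus brain, edgeR adjusted p = 4.4e-04), where 4.12% of 20108 rows were called higher in this direction and 2.35% lower. With the tissue sample as a block it was called as well (0.40, adjusted p = 9.4e-06), and that fit called 3445 rows in place of 1301. The unblocked call was lost without any of 7 of the 12 libraries (brain transcriptome 1 or 3, brain translatome 1 or 2, kidney transcriptome 1, 2 or 3), at adjusted p between 0.001 and 0.0021 and log2 differences of 0.39 to 0.42, and with limma (0.40, adjusted p = 0.0011).

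Ddit3 was higher in every translatome sample than in the transcriptome of the same tissue, by ratios of 1.63, 1.28 and 1.12 in the brain and 1.37, 1.2 and 1.04 in the kidney. In the brain the transcriptome gave 11.6, 13.1 and 14.4 RPKM and the translatome 19.0, 16.8 and 16.1 RPKM, which did not overlap. In the kidney the values were 8.86, 9.20 and 8.08 RPKM and 12.2, 11.0 and 8.44 RPKM, and the third translatome library fell among the transcriptome libraries. The brain log2 fold change was 0.44 ± 0.10 (edgeR adjusted p = 0.0019); with the tissue sample as a block it passed the threshold (adjusted p = 7.2e-05), and it also did without brain transcriptome replicate 3 (6.9e-04). The kidney log2 fold change was 0.28 ± 0.14 (edgeR adjusted p = 0.13), and with only the libraries of 1 lane it was -0.042. The gene shares 68 exonic bases, 7.64% of its transcript, with Mars on the other strand, and reads from there could not be assigned by strand with the kit used.

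Asns fell in the kidney translatome relative to total RNA in the paired fit and its brain values overlapped. The kidney transcriptome gave 16.7, 14.0 and 15.9 RPKM and the translatome 12.5, 10.3 and 10.5 RPKM, without overlap and lower in 3 of 3 tissues (ratios 0.748, 0.735 and 0.664). Its log2 fold change was -0.48 ± 0.098 (edgeR adjusted p = 0.0018), and with the tissue sample as a block it was called (adjusted p = 8.3e-16), although in that fit the dispersion of every gene was set to the trend, so the size of this p cannot be put down to the pairing alone. The call was also made without kidney transcriptome replicate 2 (adjusted p = 9.5e-04) and without kidney translatome replicate 1 (6.2e-04). In the brain the values overlapped, at 15.2, 13.8 and 12.9 RPKM against 16.4, 13.2 and 13.1 RPKM (log2 fold change 0.064 ± 0.096, edgeR adjusted p = 0.59). The organ difference of -0.53 ± 0.16 missed the threshold (edgeR adjusted p = 0.023) and passed it with the block (1.1e-05).

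Trib3 gave too few reads for a small difference to be detected. Its brain transcriptome libraries held 18, 28 and 22 reads and its brain translatome libraries 24, 20 and 7; the kidney libraries held 51, 40 and 30 reads and 33, 21 and 30 reads. Fitted log2 fold changes were 0.10 ± 0.33 (edgeR adjusted p = 0.82) in the brain and 0.29 ± 0.24 (0.35) in the kidney, so that a difference of the size seen for Atf4 was not detectable at this depth.

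**Figure D2:**
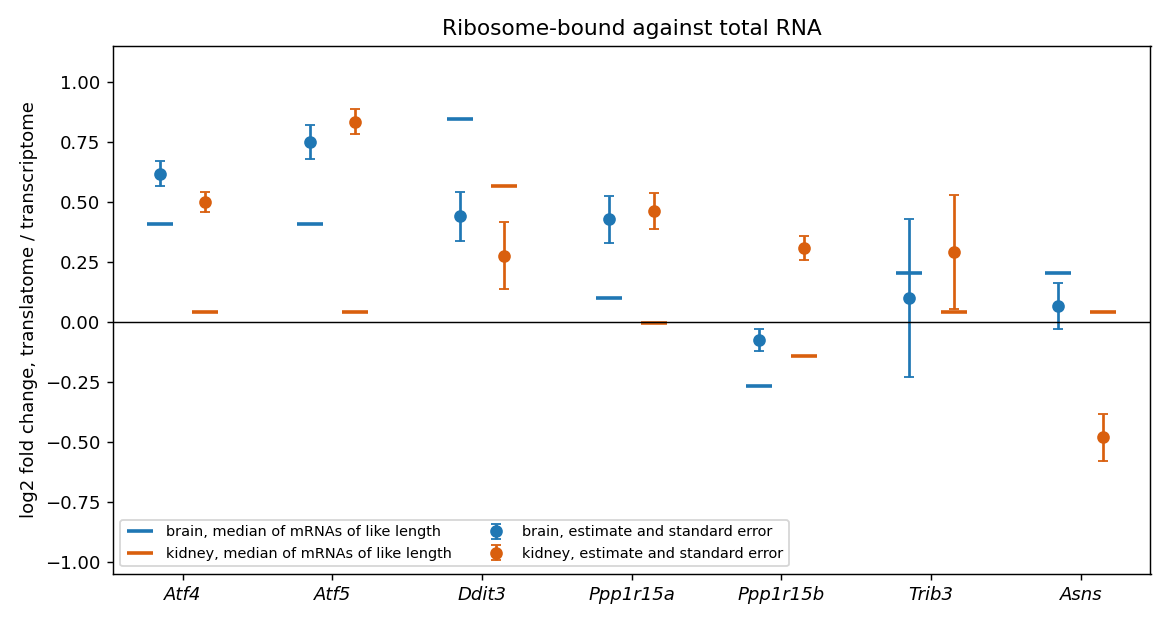
Log2 fold change of translatome over transcriptome (vertical axis) for the 7 mRNAs in brain and kidney; points with bars are edgeR estimates with their standard errors, and horizontal marks are the medians of mRNAs of like transcript length. Atf5 (0.75 and 0.83) and Atf4 (0.62 and 0.50) lie above the medians of their length in both organs, Ddit3 (0.44 and 0.28) below, and Asns in the kidney at -0.48.

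Short mRNAs had higher ratios of translatome to transcriptome than long ones, so the members were set beside mRNAs of like length; the part of length in the members' values was not tested. When mRNAs over 1 RPKM in the transcriptome were split into 10 equal bins of transcript length, the median log2 fold change ran from 0.85 in the shortest bin to -0.36 in the longest in the brain, and from 0.57 to -0.20 in the kidney. Atf4 (1725 bases) and Atf5 (1735 bases) lay above the median of their bin in the brain (1257 to 1743 bases, 0.41) and in the kidney (1700 to 2107 bases, 0.041). Both genes were near an edge of these bins. The bins across that edge had medians of 0.205 in the brain and 0.219 in the kidney, which both genes also exceeded. Ddit3, with 890 bases, lay below the median of its bin in both organs (0.85 and 0.57). Ppp1r15a, of 2333 bases, was above its bin median of 0.098 in the brain and -0.0034 in the kidney. Ppp1r15b, the longest member at 5594 bases, exceeded its bin median in the brain (-0.27) and in the kidney (-0.14) although its brain estimate was below 0. Asns, of 2001 bases, lay below its bin median of 0.21 in the brain and 0.041 in the kidney.

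Over all mRNAs with more than 1 RPKM in the transcriptome, the number of upstream ATGs went with small differences in the fold change. In the brain the median log2 fold change was 0.00072 for 5982 mRNAs with 0 upstream ATGs and 0.048 for 2199 with 3 or more. In the kidney it was -0.081 for 6096 and 0.10 for 2086 mRNAs. The interquartile range for mRNAs with 3 or more upstream ATGs, -0.30 to 0.40 in the brain and -0.23 to 0.41 in the kidney, was far wider than these shifts. These mRNAs were also longer (median 3652 bases in the brain comparison against 2715 for those with 0), and their part in this pattern was not tested. Of the members, Atf4, Atf5 and Ppp1r15a lay above the upper quartile of this class in both organs and Ppp1r15b inside the quartiles in both. Among mRNAs with 2 upstream ATGs, Ddit3 lay above the upper quartile in the brain (0.42) and inside the quartiles in the kidney, and Asns inside them in the brain and below the lower quartile in the kidney (-0.25). For the 2038 mRNAs with a frame that overlaps the main start, as in Atf4 and Atf5, the median was 0.058 in the brain, and for 2001 such mRNAs in the kidney 0.10.

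**Figure D3:**
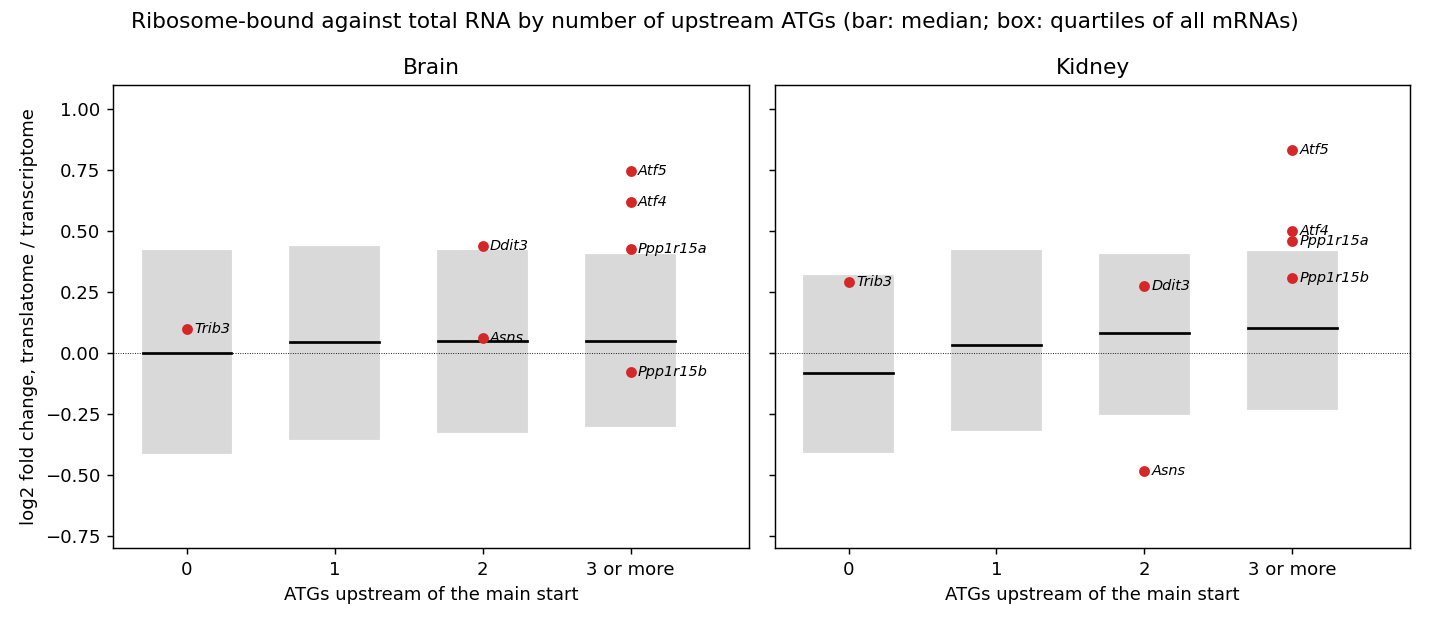
Log2 fold change of translatome over transcriptome (vertical axis) by the number of ATGs upstream of the main start (horizontal axis) in brain and kidney; black bars are medians and grey boxes quartiles of all mRNAs over 1 RPKM in the transcriptome, red points are the members. Atf5, Atf4 and Ppp1r15a sit above the boxes of mRNAs with 3 or more upstream ATGs, whose upper quartiles are 0.40 and 0.41.

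The cell populations were then compared with the total RNA of their organ. These comparisons share their transcriptome libraries with those above, and the fold changes depend on the scaling. Each cell population was sequenced on a lane of its own and came from embryos of another Cre driver than the organ libraries. The endothelial libraries also followed tamoxifen. Lane, Cre driver and tamoxifen therefore cannot be told apart from cell type, here or against the organ translatome. With total counts in place of TMM factors the median log2 fold change of all mRNAs moved by -0.34 in brain endothelial cells against the transcriptome and by -0.43 in kidney endothelial cells, by -0.30 and -0.37 against the translatomes, and by -0.15 and -0.051 in the Emx1-lineage against transcriptome and translatome. The share of calls that were higher went from 52.4% to 35.4% in brain endothelial cells and from 55.3% to 24.7% in kidney endothelial cells against the transcriptome, from 53.7% to 36.1% and from 52.7% to 21.7% against the translatomes, and from 51.6% to 39.6% and from 41.7% to 29.9% in the Emx1-lineage. Fold changes are given with TMM, that is, relative to most other mRNAs, and members and lists whose counts of calls moved by over 1.5 times with total counts are given with both.

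Against total brain RNA, brain endothelial cells had 4 of the 7 mRNAs called higher (26.8% of 19522 rows were) and 0 lower (24.3% of rows were); DESeq2 called 4 higher and 1 lower, and an unadjusted p under 0.05 gave 6 and 1. The 4 were Atf4 (log2 fold change 0.55 ± 0.066, edgeR adjusted p = 7.2e-06), Ppp1r15a (0.61 ± 0.11, 2.0e-04), Ppp1r15b (0.84 ± 0.061, 5.1e-08) and Trib3 (2.10 ± 0.32, 5.5e-05). Ddit3 was at -0.48 ± 0.11 (adjusted p = 0.0021; called lower with total counts, 2.1e-05). With total counts only Ppp1r15b (0.51) and Trib3 (1.76) of the 4 were still called higher, and Asns, at 0.30, moved to -0.039. The Ppp1r15a call was lost without brain transcriptome replicate 1 or 3 (adjusted p = 0.0012 for both).

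Kidney endothelial cells against total kidney RNA gave 4 members higher (22.7% of 19335 rows were) and 0 lower (18.4% of rows were); DESeq2 gave 5 and 0, and an unadjusted p under 0.05 gave 5 and 1. The calls were Atf4 (log2 fold change 0.66 ± 0.050, edgeR adjusted p = 1.7e-06), Ppp1r15b (0.93 ± 0.046, 9.2e-08), Trib3 (1.41 ± 0.18, 7.3e-05) and Asns (0.65 ± 0.11, 6.3e-04). With total counts Ppp1r15b (0.50) and Trib3 (0.98) kept theirs, Atf4 (0.23) and Asns (0.22) did not, Ddit3 was called lower (-0.74), and Ppp1r15a went from 0.39 to -0.048. The Asns call was lost without kidney transcriptome replicate 2 or 3 (adjusted p = 0.0018 and 0.0019) and without kidney endothelial replicate 1 or 2 (0.0052 and 0.0028). In the Emx1-lineage 5 members were higher than in total brain RNA (25.4% of 19471 rows were) and 0 lower (23.8% of rows were); DESeq2 gave 5 and 0, and an unadjusted p under 0.05 gave 6 and 1.

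The Emx1-lineage calls were Atf4 (log2 fold change 0.88 ± 0.045, edgeR adjusted p = 1.3e-10), Ppp1r15a (0.85 ± 0.084, 2.5e-07), Atf5 (0.75 ± 0.066, 5.4e-08), Asns (0.45 ± 0.086, 2.3e-04) and Ddit3 (0.43 ± 0.091, 5.9e-04). The Ddit3 call was lost without brain transcriptome replicate 1 (adjusted p = 0.0018) or without Emx1-lineage replicate 1, 2 or 3 (0.0066, 0.0014 and 0.0015), and the Asns call without Emx1-lineage replicate 3 (0.0023). Both were lost with total counts, with which Ppp1r15b, not called at 0.11, moved to -0.038. Trib3 was lower at -0.69 ± 0.28 without reaching the threshold (0.043).

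Comparison with the organ translatome sets ribosome-bound RNA against ribosome-bound RNA and asks where the cell population differs from the whole organ. Differences in mRNA amount and in ribosome binding cannot be told apart in it, because only translatomes were made from the cell populations. In brain endothelial cells 2 members were called higher (24.8% of 19103 rows were) and 1 lower (21.4% of rows were). In kidney endothelial cells 2 were called higher (16.7% of 18940 rows were) and 1 lower (15.0% of rows were). Ppp1r15b was higher in both. Its levels were 28.2, 29.9 and 29.4 RPKM in brain endothelial libraries and 46.2, 45.8 and 47.7 RPKM in kidney endothelial libraries, above all libraries of the organ translatome in either case. The log2 fold change was 0.90 ± 0.063 (edgeR adjusted p = 3.3e-08) in the brain and 0.55 ± 0.066 (3.0e-05) in the kidney; with total counts the kidney value was 0.18 and no longer called (0.029).

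Trib3, at 0.613, 1.13 and 0.509 RPKM in brain endothelial libraries (78, 124 and 60 reads), was above every brain translatome library. Its log2 fold change was 1.98 ± 0.38 (edgeR adjusted p = 4.1e-04), a ratio of 3.95. The call was lost without brain translatome replicate 1 or 3 (adjusted p = 0.0074 and 0.0017) and with total counts (0.0014). In kidney endothelial cells Trib3 was at 0.989, 0.968 and 0.901 RPKM, also above all 3 kidney translatome libraries, and the log2 fold change of 1.05 ± 0.24 missed the threshold (0.0031).

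Ddit3 was called lower in brain and Atf5 in kidney endothelial cells. Ddit3 gave 6.99, 8.02 and 7.13 RPKM in brain endothelial cells, below all brain translatome libraries (log2 fold change -0.94 ± 0.11, edgeR adjusted p = 5.0e-06), and 4.83, 5.90 and 5.12 RPKM in kidney endothelial cells, below all kidney translatome libraries (-0.65 ± 0.16, 0.0049; called with total counts, 1.6e-04). Atf5 gave 18.8, 22.3 and 16.7 RPKM in kidney endothelial cells, below all kidney translatome libraries (log2 fold change -0.94 ± 0.088, edgeR adjusted p = 4.4e-06), and 89.7% of mRNAs over 5 RPKM had a larger log2 fold change. In brain endothelial cells Atf5 was at 22.1, 28.4 and 20.0 RPKM (-0.42 ± 0.11, 0.0039), and the difference was called without brain endothelial replicate 2 (5.3e-06) and with total counts (-0.72, 5.1e-05). The difference between the organs in this contrast was not called for Atf5 (kidney minus brain -0.55 ± 0.15, edgeR adjusted p = 0.0076).

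Atf4 was not called against the organ translatome in either endothelial population. Brain endothelial libraries gave 90.8, 99.6 and 93.1 RPKM and kidney endothelial libraries 117, 127 and 116 RPKM, which in RPKM lie below all libraries of the organ translatome in either organ, whereas with TMM the differences were near 0. The log2 fold changes were -0.089 ± 0.066 (edgeR adjusted p = 0.27) and 0.091 ± 0.059 (0.22), but with total counts -0.39, which was called lower (1.6e-04), and -0.28, which was not (0.0020). Ppp1r15a was at 0.17 ± 0.097 and -0.14 ± 0.084, neither called, although all 3 kidney endothelial libraries (7.39, 8.54 and 8.24 RPKM) lie below the kidney translatome libraries, and with total counts it was lower in the kidney (-0.51, adjusted p = 3.1e-04) and changed sign in the brain (-0.13).

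Asns was called higher in kidney endothelial cells than in the kidney translatome (19.6, 20.0 and 14.8 RPKM, log2 fold change 1.06 ± 0.12, edgeR adjusted p = 2.3e-05) and was so with total counts (0.70, 3.6e-04), but not with limma on log2(RPKM + 1) (0.66, adjusted p = 0.0017). In brain endothelial cells it was at 15.1, 13.7 and 12.0 RPKM (0.22 ± 0.11, 0.091; -0.080 with total counts). The difference of these contrasts between the organs, a test added after the values were seen, was 0.82 ± 0.18 on the log2 scale and missed the threshold (adjusted p = 0.0012); it passed with DESeq2 (1.1e-05) and without brain endothelial replicate 1, kidney translatome replicate 1 or kidney endothelial replicate 3 (adjusted p between 1.5e-04 and 9.7e-04). No member was called in it with edgeR, where 8.60% of 19764 rows were higher and 16.5% lower; an unadjusted p under 0.05 gave 1 higher and 3 lower, and DESeq2 gave 1 higher and 0 lower. Ppp1r15b was at -0.38 ± 0.088 in it (adjusted p = 0.0022) and was called with total counts (-0.42, 7.3e-04).

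**Figure D4:**
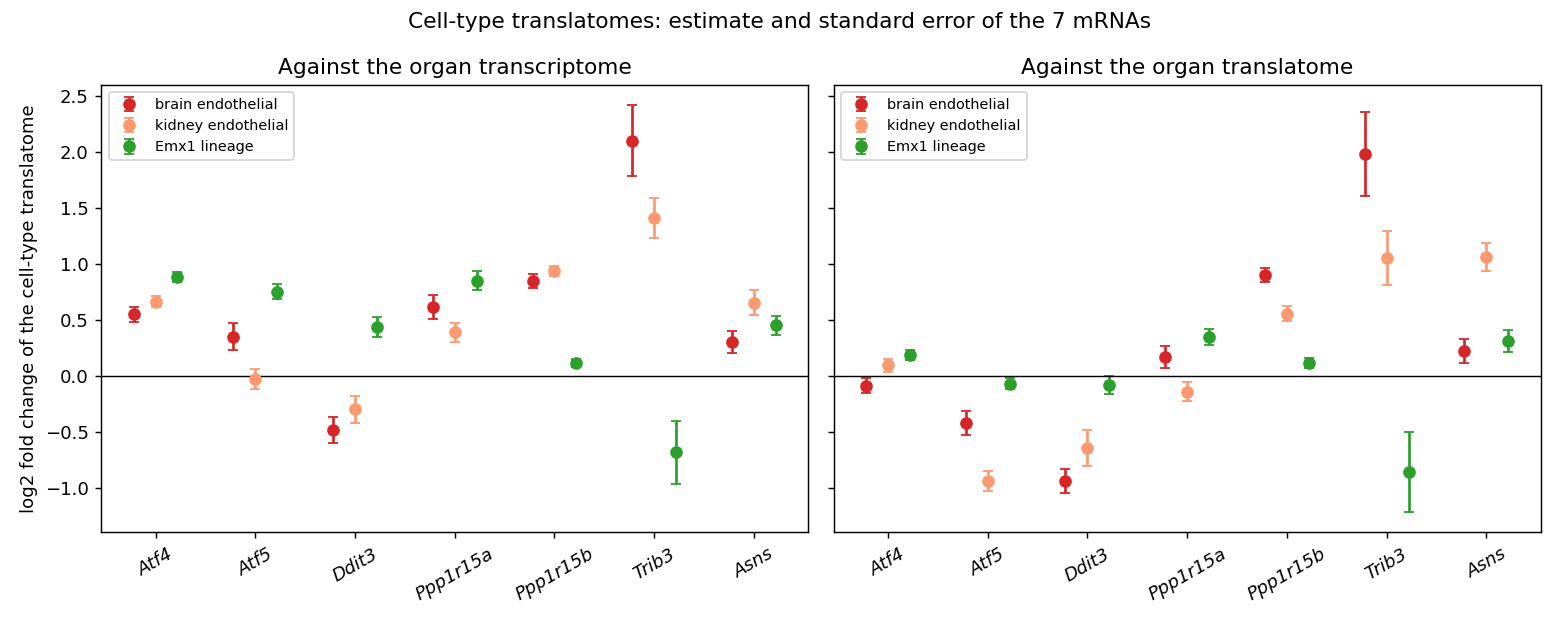
Log2 fold change with standard error (vertical axes) of the 7 mRNAs in brain endothelial, kidney endothelial and Emx1-lineage translatomes against the organ transcriptome (left) and the organ translatome (right), TMM scaling. Against the transcriptome Atf4 lies above 0 in all 3 populations (0.55, 0.66 and 0.88), and against the translatome near 0 (-0.089, 0.091 and 0.18).

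The Emx1-lineage was then compared with the brain translatome, which contains the same tissue. With edgeR 0 of the 7 mRNAs were called in either direction, where 9.20% of 19006 rows were higher and 12.8% lower; DESeq2 called 2 higher and 0 lower (Atf4 and Ppp1r15a), and an unadjusted p under 0.05 gave 4 higher and 1 lower. Ppp1r15a was at 9.99, 9.63 and 10.6 RPKM, above all brain translatome libraries (log2 fold change 0.34 ± 0.073, edgeR adjusted p = 0.0015). Atf4 was at 131, 138 and 134 RPKM, also above them (0.18 ± 0.044, 0.0030). Asns gave 0.31 ± 0.096 (0.016), and Atf5 (-0.073), Ddit3 (-0.084) and Ppp1r15b (0.11) lay closer to 0. Trib3 had 20, 8 and 13 reads and a log2 fold change of -0.86 ± 0.36 (0.066).

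Between the transcriptomes of the organs 1 member was called higher in the kidney (26.3% of 19841 rows were) and 1 lower (27.2% of rows were). Ppp1r15b was higher in the kidney (log2 fold change 0.49 ± 0.035, edgeR adjusted p = 2.4e-07) and Ddit3 lower (-0.77 ± 0.10, 5.2e-05). Atf4 (0.13 ± 0.040, 0.013), Atf5 (0.0039 ± 0.078, 0.97) and Asns (-0.035 ± 0.090, 0.74) were not called, and Trib3 was at 0.94 ± 0.22 (0.0025). Total counts moved the median of all mRNAs by 0.18 here, the share of calls that were higher in the kidney from 49.2% to 58.5%, and Atf4 (0.31) and Trib3 (1.12) past the threshold; Asns turned from below to above 0 with the same scaling (0.15).

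The rest of the pathway was followed in 6 lists of genes, some of which share a gene (Cebpb, Eprs and Slc7a1 stand in 2 lists each). Their counts of calls are to be read beside the shares of all rows called higher and lower, which were 18.6% and 18.5% in the brain translatome and 14.9% and 15.8% in the kidney translatome against total RNA, and, against the organ translatome, 24.8% and 21.4% in brain endothelial cells, 16.7% and 15.0% in kidney endothelial cells and 9.20% and 12.8% in the Emx1-lineage. These shares hold for the main fit only, whose rows include weakly expressed ones. With at least 10 counts in 3 samples, 3336 rows were higher and 3511 lower of 15486 in the brain translatome. In the kidney translatome 2868 were higher and 2873 lower of 15334. The block called 4500 rows higher and 4433 lower of 19446 in the brain translatome, and 4636 and 4860 of 19336 in the kidney translatome. Total counts gave 3397 higher and 6002 lower of 19103 rows in brain endothelial cells against the translatome, and 1564 and 5655 of 18940 in kidney endothelial cells. Among 12 genes for the eIF2 kinases, eIF2 and its exchange factor eIF2B, 0 were higher and 1 lower in the brain translatome than in total RNA, and 0 higher and 4 lower in the kidney, with medians of 0.032 and -0.24. DESeq2 gave 0 and 1 in the brain and 0 and 5 in the kidney, an unadjusted p under 0.05 gave 2 and 2 and 0 and 7, and the block 1 and 2 and 0 and 8. Eif2ak4, the kinase that senses uncharged tRNA (GCN2), was lower in both, at -0.63 ± 0.067 and -0.40 ± 0.060 on the log2 scale, and Eif2b3 in the kidney (-0.46 ± 0.063). Against the organ translatome, 4 of the 12 were higher in brain and 3 in kidney endothelial cells, but 1 in each with total counts, where 2 were lower in the brain; with TMM 0 were lower (DESeq2 gave 4 higher and 1 lower in the brain and 6 and 0 in the kidney, and an unadjusted p under 0.05 gave 5 and 2 and 7 and 0). Eif2ak3, the kinase PERK of the endoplasmic reticulum, was higher in both with TMM (0.53 ± 0.070 and 0.84 ± 0.069) but only in the kidney with total counts (0.23 and 0.47), and Eif2ak2, the kinase PKR, in the brain (2.07 ± 0.11).

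The aminoacyl-tRNA synthetases and the tRNA exporter Xpot, which ATF4 is known to activate, form the next list. Of these 13 genes, 9 were lower and 0 higher in the brain and 12 lower and 1 higher in the kidney, with medians of -0.49 and -0.62, beside 0.0048 and -0.014 over all mRNAs. DESeq2 also called 0 higher in the brain, as did an unadjusted p under 0.05, and 12 lower. Iars fell from 25.3 to 14.3 RPKM in the brain (log2 fold change -0.80 ± 0.060) and Lars from 43.2 to 24.3 RPKM in the kidney (-0.83 ± 0.061). The kidney exception was Mars, at 0.53 ± 0.041, the gene that overlaps Ddit3. The median length of these mRNAs was 3570 bases, and the bins of all mRNAs around that length had medians of -0.12 in the brain and -0.092 in the kidney. In kidney endothelial cells 10 of the 13 were higher than in the kidney translatome and 1 lower, but only 1 higher and 1 lower with total counts; Gars was at 1.00 ± 0.053 and Mars at -0.59 ± 0.075. In brain endothelial cells 2 were higher and 1 lower with TMM, 0 and 5 with total counts, and 5 and 2 with DESeq2.

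Of 16 ATF4 targets of amino acid supply, a list that holds serine synthesis enzymes and amino acid transporters, 1 was higher and 5 lower in the brain translatome than in total RNA, and 0 higher and 8 lower in the kidney (DESeq2: 2 and 9; unadjusted p under 0.05: 2 and 12). Shmt2 (-0.48 ± 0.047 in the kidney) and Aldh1l2 (-0.52 ± 0.070 in the brain), enzymes of mitochondrial folate metabolism, were among the lower ones, whereas Psph, the last enzyme of serine synthesis, was higher in the brain (0.56 ± 0.082). With the block the counts were 2 higher and 9 lower in the brain and 2 and 12 in the kidney. In brain endothelial cells 6 were higher and 6 lower than in the brain translatome: the transporters Slc7a5 (58.1 to 802 RPKM, log2 fold change 4.08 ± 0.094) and Slc7a1 (15.2 to 208 RPKM, 4.07 ± 0.10) stood at the top, and Phgdh, the first enzyme of serine synthesis, at the bottom (-2.01 ± 0.28). In kidney endothelial cells 5 were higher and 4 lower, 2 and 7 with total counts.

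Of 12 other stress targets, 4 were higher and 1 lower in the brain translatome than in total RNA, and 2 higher and 0 lower in the kidney (DESeq2: 3 and 0; unadjusted p under 0.05: 5 and 2; with the block 4 and 2). Cebpb, a transcription factor made as several proteins from a single mRNA, was higher in both (0.96 ± 0.16 and 0.93 ± 0.13). In endothelial cells 5 were higher and 1 lower in the brain and 4 and 1 in the kidney, but 3 and 1 and 2 and 2 with total counts; Atf3, a stress-induced transcription factor, rose from 0.769 to 10.8 RPKM in brain endothelial cells (4.09 ± 0.12) and from 3.08 to 7.88 RPKM in kidney endothelial cells (1.70 ± 0.13). Among 15 chaperones and quality control genes of the endoplasmic reticulum, 4 were higher and 4 lower in the brain translatome and 3 and 5 in the kidney (6 and 8 with the block). Manf was higher in both (1.21 ± 0.060 and 1.02 ± 0.063) and Hsp90b1 lower in both (-1.01 ± 0.080 and -0.72 ± 0.067). In brain endothelial cells 12 of the 15 were higher and 0 lower (11 and 0 with total counts, 13 and 0 with DESeq2 and at an unadjusted p under 0.05), with a median of 0.90 beside 0.013 over all mRNAs, and in kidney endothelial cells 6 were higher and 0 lower with TMM (9 and 0 with DESeq2, 13 and 0 at an unadjusted p under 0.05) but 0 and 0 with total counts.

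A list of 14 other mRNAs described with regulatory upstream frames had 7 higher and 1 lower in the brain translatome and 6 higher and 2 lower in the kidney, with medians of 0.51 and 0.37 on the log2 scale. With the block 8 were higher and 3 lower in both organs, and DESeq2 called 6 higher and 4 lower in the brain. Ucp2, a mitochondrial carrier, was at 0.99 ± 0.081 and 0.96 ± 0.095, and Eprs, the glutamyl-prolyl-tRNA synthetase, was lower in both (-0.47 ± 0.051 and -0.73 ± 0.044). In the Emx1-lineage against the brain translatome, this list had 1 gene higher and 3 lower, the amino acid supply list 3 and 4, the other stress targets 2 and 2, and the eIF2 list 1 and 0. The synthetases and the chaperones had 0 called in either direction there, while DESeq2 called 2 and 1 of the synthetases and 0 and 2 of the chaperones, and an unadjusted p under 0.05 gave 10 and 1 and 1 and 6.

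**Figure D5:**
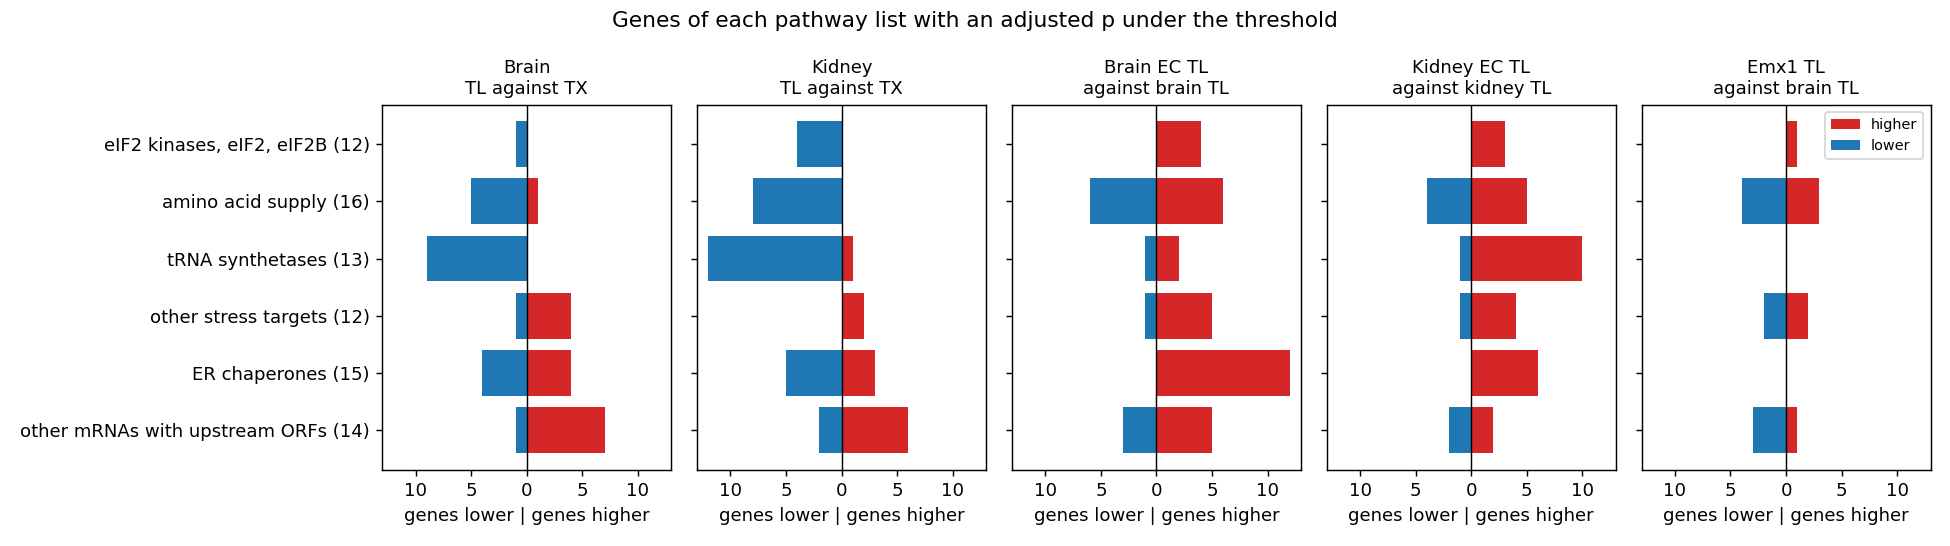
Number of genes of each list called lower (left of 0, blue) or higher (right of 0, red) at an adjusted p under 0.001 in 5 comparisons with TMM scaling; list sizes are in brackets. The synthetase bar reaches 12 lower in the kidney translatome and 10 higher in kidney endothelial cells, and the chaperone bar 12 higher in brain endothelial cells.

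Over the 21 libraries, the members did not follow a single pattern. Pearson's r of log2(RPKM + 1) was 0.87 between Atf4 and Ppp1r15a, 0.73 between Atf5 and Ppp1r15a and 0.69 between Atf4 and Atf5, but -0.85 between Ddit3 and Ppp1r15b, -0.86 between Ddit3 and Trib3 and 0.85 between Ppp1r15b and Trib3. These points share organs, Cre drivers and lanes, so the values describe the 7 groups more than single libraries. Among 10065 mRNAs over 5 RPKM, the most like Atf4 were Snrpd3 (r = 0.98) and Snrpd1 (0.98), the most like Atf5 Sec22a (0.96) and Rdh14 (0.95), and the most like Ddit3 Myl6b (0.98) and Tk2 (0.98). Ifrd2 (0.99) and Icmt (0.99) were most like Ppp1r15b, Zbtb8os and Ufsp2 (0.92 for both) most like Ppp1r15a, and Tinagl1 (0.94) and Bcl6b (0.94) most like Trib3, whose pair alone changed with another pseudocount or minimum level. Asns had no close counterpart: its highest values were 0.76 for Cnn3 and 0.69 for Bysl. The 21 values of r between pairs of members ranged from -0.86 to 0.87.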

How the data were processed

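RNA sequencing libraries of 21 samples (7 groups of 3) were analysed. Per the authors' methods, reads of unstranded TruSeq RNA v2 libraries were mapped to GRCm38 (mm10) with RUM and summarised on UCSC refGene with rpkmforgenes, and cycloheximide was present during extraction of ribosomes. The deposited count is the number of reads on a gene, without normalization. The deposited RPKM was computed by the authors from these reads, scaled by transcript length and library size. No deposited column of comparisons was used.

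Each comparison was a quasi-likelihood F test of the counts after TMM scaling (edgeR 4.0.16, R 4.3.3), fitted to its own 6 libraries, or to 12 for organ differences, over all rows with at least 1 count, with Benjamini-Hochberg adjustment over all of them and a threshold of 0.001. The authors used DESeq. SE is the log2 fold change divided by the root of F. Upstream ATGs and lengths were taken from a single GENCODE vM21 transcript per gene, the first that matched its RefSeq entries. The edgeR and DESeq2 tests of translatome against transcriptome in brain and in kidney were checked on simulated counts, which held no pairing by tissue. The other comparisons were not simulated.

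The members, lists and named genes were chosen with earlier results of these data known. Per list, the 2 largest called changes in each direction over 1 RPKM were eligible for naming, and per member the 2 genes with the highest r over 5 RPKM; not all are printed. Replicates came from separate tissue samples. Libraries of the transcriptome and the translatome with the same number came from the same tissue: their deviations from the group means correlated at 0.50 to 0.70 (brain) and 0.52 to 0.59 (kidney), and other pairs at 0.073 or less, so they were paired in a replicate block. Libraries of the cell populations share only a number with the others. Alternatives were DESeq2 1.42.0, RLE factors, total counts, at least 10 counts in 3 samples, a threshold of 0.05, limma 3.58.1 on log2(RPKM + 1), a fit of all 21 samples, libraries of 1 lane, the block, and each library left out.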

Additional observations from a re-analysis of the deposited data

Results flagged for a closer look

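The difference between translatome and transcriptome of Ppp1r15b was called as different between the organs in the main fit (edgeR adjusted p = 4.4e-04). Within the brain the difference was not called (edgeR adjusted p = 0.20). The call between organs was lost without some single libraries (edgeR adjusted p up to 0.0021) and with limma on log2(RPKM + 1). Translatome and transcriptome libraries were unevenly spread over the sequencing lanes in both organs, and the part of lane was not tested. The log2 difference, kidney minus brain, was 0.40 (edgeR interaction, 12 libraries), with the kidney at 0.31 and the brain at -0.076; the kidney translatome was higher in 3 of 3 tissues and the brain translatome lower in 3 of 3.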

How the results depend on the processing

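Of the recomputed values of single members, 985 stayed on the same side of the threshold, 53 fell short of it and 43 passed it; none passed the threshold in the opposite direction. At an adjusted p under 0.05, 4 members were higher in the brain translatome than in total RNA (2 at 0.001), 1 was lower in the kidney translatome, in brain endothelial cells and in the Emx1-lineage against total RNA, 2 were lower in brain and in kidney endothelial cells against the translatome, 3 were higher in the Emx1-lineage against the translatome, 3 were higher in the kidney transcriptome, 1 was lower in the organ difference, and 1 was higher and 3 were lower in the endothelial organ difference, which was chosen after seeing the data. DESeq2 gave 4 higher in the brain and 1 lower in the kidney translatome against total RNA, 1 lower in brain endothelial cells against total RNA, 2 higher in the Emx1-lineage against the translatome, and 1 higher in the endothelial organ difference, as did RLE factors. With total counts, 2 members were higher and 1 lower in both endothelial populations against total RNA, 1 was higher and 3 lower in both against the translatome, 3 were higher in the Emx1-lineage against total RNA, 3 were higher in the kidney transcriptome, and 1 was lower in the endothelial organ difference. limma on log2(RPKM + 1), in which Trib3 was not tested so that counts are over 6 members, gave 1 higher and 1 lower in both endothelial populations against total RNA, 3 higher in the Emx1-lineage, 1 higher and 3 lower in brain and 0 higher and 3 lower in kidney endothelial cells against the translatome, 2 higher in the kidney transcriptome, 0 higher in the organ difference and 1 lower in the endothelial one. The filter of 10 counts gave 3 higher in the Emx1-lineage against total RNA and 1 higher in brain endothelial cells against the translatome, and the fit of all 21 samples gave 3 higher in the Emx1-lineage and 1 lower in brain endothelial cells against total RNA, and 2 lower in both endothelial populations against the translatome. Without single libraries, the number of members higher ranged over 2 to 3 and 2 to 4 in brain and kidney translatome, 3 to 4 in both endothelial populations and 3 to 5 in the Emx1-lineage against total RNA, 1 to 2 in brain endothelial cells against the translatome and 0 to 1 in both organ differences, and the number lower over 0 to 1 in the kidney translatome and 1 to 2 in brain endothelial cells against the translatome. The causes were not tested.

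With the replicate block, 4 members were higher in the brain translatome and 1 was lower in the kidney translatome and in the organ difference, as given beside those results; it changed no other call between translatome and transcriptome. The cell populations share only a number with the organ libraries: there the block moved the count of called rows from 7938 to 6696 in kidney endothelial cells against total RNA, with the Asns call lost (adjusted p = 0.0014), and called 1 member higher, Asns, in the endothelial organ difference (3.7e-04).

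The count of called rows moved by over 1.5 times with a threshold of 0.05 (7221 to 10855 and 5929 to 9754 in brain and kidney translatome, 7938 to 12277 in kidney endothelial cells against total RNA, 6000 to 10509 and 4191 to 8580 in kidney endothelial cells and the Emx1-lineage against the translatome, 1301 to 4647 and 4958 to 8522 in the organ differences), in the kidney translatome with the block (9496) and within 1 lane (3736), in the organ difference with the block (3445), DESeq2 (2669) and without kidney transcriptome replicate 2 (850), and in the Emx1-lineage against the translatome with limma (2010). Trib3, with 7 to 124 reads, is the member that depth limits most.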
